A study of Mus musculus with 12 samples.

Results

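The cytosolic ribosomal protein genes were followed through 12 mouse brain libraries of Plat-/- and wild-type mice. Members were the rows of the deposited expression table whose gene name starts with Rpl or Rps and a digit, or is Rplp0, Rplp1, Rplp2 or Rpsa, without pseudogene names and without the Rps6k kinases. They also needed a mean of at least 5 FPKM (fragments scaled to transcript length and to the number of mapped fragments) over the 12 libraries. The rule took 79 of the 27131 rows of the table. Of these, 46 belong to the large (60S) subunit and 32 to the small (40S) subunit by name. The remaining member, Rps19bp1, encodes a protein that binds a ribosomal protein and is not itself one.

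The cytosolic ribosome joins a small subunit, which reads the mRNA, to a large subunit, which forms the peptide bonds, and each ribosomal protein is needed in about the same number as the others. Their mRNAs are known for a terminal oligopyrimidine (TOP) tract, a C followed by further pyrimidines at the very first bases, through which mTOR and the RNA-binding protein LARP1 adjust translation. In neurons these mRNAs supply ribosomes both in the cell body and in dendrites and axons, and subunits that are not built into ribosomes can bind Mdm2 and stabilise p53.

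Plat encodes tissue plasminogen activator, a secreted protease of the brain and of blood vessels. The study compared 2 independent Plat-/- strains, labelled Old and New, with wild-type (WT) mice, all C57BL/6 and 6 weeks old, with 4 mice in each group. The Plat-/- mice were raised under specific-pathogen-free conditions and the WT mice were bought from a commercial breeder, so genotype and origin cannot be told apart, and the labels do not say how the 2 alleles differ. Sex is not given. The labels call the tissue cerebral cortex, whereas the protocol removes only the olfactory bulb and the cerebellum from the brain. Cortical layer markers were present in every library (5 of 5, summed level 69.3 to 78.7 FPKM). So were markers of striatum (4 of 5, 98.0 to 148 FPKM) and thalamus (5 of 5, 52.95 to 72.4 FPKM). Polyadenylated RNA was sequenced, although another label speaks of depletion of ribosomal RNA. In bulk tissue, fewer cells of a type and less RNA per cell cannot be told apart.

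Plat averaged 1.76 ± 0.296 FPKM in Old, 2.88 ± 0.182 FPKM in New and 8.43 ± 1.24 FPKM in WT (SD, n = 4 each). Old 1 and WT 4 stood apart from the other 10 libraries. For the members, the order of levels in either of them correlated with those of the 10 at a Spearman rho of 0.857 to 0.901, against 0.958 to 0.996 among the 10 and 0.995 between Old 1 and WT 4. Every comparison was therefore made with and without both libraries, which leaves 3 Old, 4 New and 3 WT libraries. The number of reads per library is unknown, so no counting error can be attached to a value. The p-values set a difference against the spread between the libraries of a group, each from a different mouse. That spread includes Old 1 and WT 4 wherever they are in the fit.

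The starts of 6 members are shown because they carry the tract by which this gene family is known, and because 3 of them lay far above and 2 of them far below the other libraries in Old 1 and WT 4. RefSeq promoter windows (GRCm38.p6) were matched for 58 of the 79 members. Each sequence runs from 20 bases before the annotated start to 10 bases after it, 5′ to 3′ on the strand of the gene, and the capitals mark the pyrimidine tract from the first transcribed base on.
Rpl38: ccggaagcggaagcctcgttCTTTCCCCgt
Rpl35: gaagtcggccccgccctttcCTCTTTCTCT
Rplp2: cccactgcgtcagcgtcttcCTTTCgccgc
Rps21: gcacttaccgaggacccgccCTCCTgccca
Rpl15: ggattgtgggagaaagccttCTTCCTTTCC
Rps15a: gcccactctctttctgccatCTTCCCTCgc

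These windows lie at chr11:114668560-114668589 (+) for Rpl38, chr2:39005122-39005151 (-) for Rpl35, chr7:141447631-141447660 (+) for Rplp2, chr2:180257359-180257388 (+) for Rps21, chr14:18270977-18271006 (-) for Rpl15 and chr7:118116138-118116167 (-) for Rps15a. A C followed by at least 4 pyrimidines stood at the annotated start in 12 of the 58 members (20.7%), against 2.17% of 17491 protein-coding promoters, and within 10 bases of the start on either side in 53.4% against 31.2%. The search for this tract read the strand of the gene only. The letters CCGGAAG on either strand of the 300 bases around the start were found in 36.2% of the members and in 11.9% of all promoters, and GGGCGG in 62.1% and 46.3%. The letters AAGATGGC occurred in 6.90% of the members and 3.23% of all promoters, TATAAA in 12.1% and 13.3%, and CCAAT in 32.8% and 39.03%. Other annotated starts of the same gene may differ from those used.

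The members were abundant. Their median level was 99.7 FPKM over the 10 libraries without Old 1 and WT 4, and 106 FPKM over all 12. Large-subunit genes had a median of 96.5 FPKM and small-subunit genes a median of 108 FPKM over the 10 libraries. Of the 79 members, 45 averaged at least 100 FPKM and 73 at least 20 FPKM. Their transcripts were short, with a median of 833 bases against 2726 bases for all tested genes, and lay on 19 chromosomes.

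Rpl38, a large-subunit protein known in mouse embryos for its part in the translation of Hox mRNAs, was the most abundant. It had 721, 495, 447 and 490.4 FPKM in Old, 505, 485, 507 and 508 FPKM in New, and 528, 515, 500.1 and 749 FPKM in WT. The highest values were those of Old 1 and WT 4. Without these, the Old libraries all lay below the WT libraries, and New overlapped both. Rps29, a small zinc-binding protein of the 40S subunit, followed with 501, 339, 323 and 305 FPKM in Old, 336, 317, 362 and 304 FPKM in New, and 300.2, 286, 303 and 445 FPKM in WT. Rplp1, an acidic protein of the stalk that recruits elongation factors, had 489.8, 291, 267 and 245 FPKM in Old, 289.6, 254, 317 and 255 FPKM in New, and 259.8, 233, 251 and 418 FPKM in WT. In both genes Old 1 and WT 4 were again the highest, and New 3 was the highest of the other 10. In Rps29 the remaining Old and New libraries all lay above WT 1 to 3, although New 4 and WT 3 nearly met. The other stalk genes were much less abundant: over the 10 libraries Rplp2 averaged 99.7 FPKM and Rplp0, the scaffold of the stalk, 27.8 FPKM.

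At the low end stood the paralogs and 1 gene that is no ribosomal protein. The 5 lowest means over 12 libraries were those of Rps19bp1 (7.87 FPKM), Rps4y2 (10.0 FPKM), Rps27l (10.4 FPKM), Rps15a (11.8 FPKM) and Rpl22 (14.9 FPKM). Of these, Rps15a and Rpl22 encode ordinary subunits. The row named Rps4y2 corresponds to Rps4l, which the reference annotates as a transcribed processed pseudogene. The rows just outside the minimum were Rps27 (2.38 FPKM), Rpl30 (1.16 FPKM) and Rpl7l1 (1.04 FPKM), and the 7 rows below it also held Rpl26 (0.589 FPKM), Rpl3l, Rpl39l and Rpl10l.

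**Figure D1:**
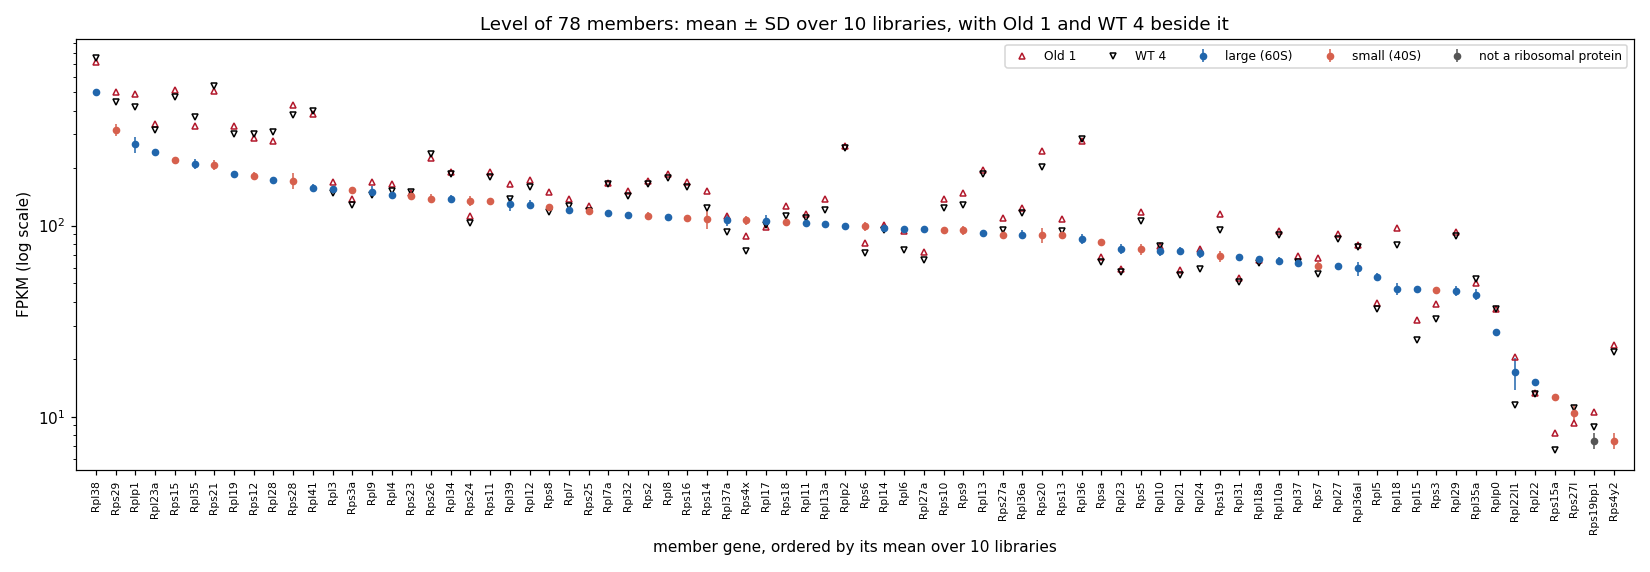
Level of 78 members in FPKM on a log axis, as mean ± SD over the 10 libraries without Old 1 and WT 4 (filled points, coloured by subunit), with Old 1 and WT 4 as open triangles; members run in order of that mean. The filled points go from 498 FPKM for Rpl38 to 7.48 FPKM for Rps4y2, and the triangles lie above them in most members.

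Rps27, Rpl30 and Rpl26 encode ordinary subunits, so their low rows were set beside near-identical copies elsewhere in the table. Such copies were sought by aligning each coding sequence to the reference transcripts (at least 95% identity over at least 80% of its length). Rpl26 had 3.93, 0, 0 and 1.94 FPKM in Old, 0 FPKM in the 4 New libraries, and 0, 0, 1.19 and 0 FPKM in WT. Its processed pseudogene Gm15772 (chr5:3236431-3236868, + strand), which differs from the 438 coding bases of Rpl26 at 2 positions, had 305, 244, 241 and 236 FPKM in Old, 233, 249, 232 and 244 FPKM in New, and 255, 249.6, 239.7 and 323 FPKM in WT. The listed level of the intronless copy was that of an abundant member, and the level of the gene itself was near 0.

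Rpl30 and Rps27 repeated this. For Rpl30, the processed pseudogene Gm12191 (chr11:49678710-49679057, - strand), with 1 mismatch over 348 coding bases, had 166, 192, 206 and 212 FPKM in Old, 189, 190.3, 179 and 186 FPKM in New, and 207, 206, 204 and 174 FPKM in WT. For Rps27, the row Gm9846, annotated as the intronless gene Rps27rt (chr9:114982366-114982739, - strand), matched all 255 coding bases without a mismatch and averaged 307 FPKM. Reads of the Rps27 pair cannot be told apart over the coding sequence, and those of the Rpl26 and Rpl30 pairs differ only where they cover a mismatch. The levels of both rows are therefore uncertain in all 3 pairs. The other copies with a row of their own were listed at means of 0 to 10.1 FPKM. The highest of these was BC004004, a copy of Rpl21. Most members also had near-identical copies in the reference that had no row of their own. Rpl7a had 32 copies, Rps2 23 and Rps12 22, none of them with a row, and Rps15a had 6, of which 2 had a row. Shared reads are therefore possible beyond the 3 pairs. How the authors' counting treated reads with several matches was not tested. The 6 pseudogene-named rows of the family averaged at most 4.45 FPKM. Rpl34-ps1, which differs from the 354 coding bases of Rpl34 at 2 positions, had 16.2, 3.93, 0.00149 and 5.64 FPKM in Old, at most 0.00213 FPKM in New and at most 0.00196 FPKM in WT. It was thus above these near-zero values in 3 of the 4 Old libraries and in none of the New or WT libraries.

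Spread within groups was small. Over the 10 libraries the median coefficient of variation within groups was 4.57% for the members, 7.17% for all tested genes and 4.14% for the 2803 tested genes of at least 20 FPKM. It was lowest for Rpl8 (1.81%), Rpsa (1.81%), which doubles as a laminin receptor, and Rpl19 (1.93%). In Rpl8 the values were 111, 115 and 110.4 FPKM in Old 2 to 4, 112, 111, 114 and 109 FPKM in New, and 109, 111 and 109 FPKM in WT 1 to 3. The spread was widest for Rpl22l1 (17.7%), Rps27l (11.1%) and Rps14 (11.1%). It stayed under 10% in 76 of the 79 members and in 91.9% of the tested genes of at least 20 FPKM. Rps14 is a 40S protein whose loss in human bone marrow is linked to anaemia. Its values were 152, 118, 102 and 104 FPKM in Old, 113, 106, 141 and 107 FPKM in New, and 104, 91.6, 101.2 and 123 FPKM in WT. New 3 was the highest of the 10 libraries there, as it was in 28 of the 79 members (35.4%, against 14.3% of all tested genes). It was the lowest in 15 members (19.0%, against 15.7% of tested genes).

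In Old 1 and WT 4 most members were higher than in any of the other 10 libraries. Old 1 exceeded the range of the 10 in 53 members and fell short of it in 14, and WT 4 exceeded it in 43 and fell short in 21. In 43 members both libraries were above that range and in 14 both were below it. Across all tested genes the balance was the other way: 27.5% were above and 43.5% below the range in Old 1, and 22.3% were above and 51.2% below in WT 4. The median deviation from the mean of the 10 libraries, on the log2 scale, was 0.41 for the members in Old 1 against -0.13 for all tested genes, and 0.26 in WT 4 against -0.25. The name rule did not use these deviations, but the 5 FPKM minimum was a mean that included both libraries. Over the 10 libraries every member averaged at least 7.48 FPKM. The members were also chosen with earlier results of these data known.

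Rpl36, a 60S protein, moved most. It had 277 FPKM in Old 1 and 283 FPKM in WT 4, against 80.7 to 85.7 FPKM in Old 2 to 4, 77.1 to 94.6 FPKM in New and 82.0 to 90.0 FPKM in WT 1 to 3. Those are ratios of 3.26 and 3.32 to the mean of the 10 libraries, which overlap across all 3 groups. Rps4y2 followed at 3.17 and 2.92 times that mean, Rplp2 of the stalk at 2.62 and 2.56 times, Rps21 at 2.43 and 2.57 times, and Rps20, a 40S protein, at 2.76 and 2.28 times. In total 11 members in Old 1 and 9 in WT 4 reached at least 2 times the mean of the 10. The share of all tested genes at that ratio is not given here, so these counts only describe the members. Rpl41, the shortest protein of the ribosome, had 385 FPKM in Old 1 and 399 FPKM in WT 4, against 149 to 167 FPKM in the others.

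Other members were lower in the same libraries. Rps15a, a 40S protein, had 8.20, 12.8, 11.9 and 13.01 FPKM in Old, 12.1, 12.5, 12.2 and 12.9 FPKM in New, and 13.3, 13.1, 12.3 and 6.69 FPKM in WT. Rpl15 had 31.9, 48.2, 44.2 and 46.2 FPKM in Old, 47.6, 46.7, 48.0 and 48.4 FPKM in New, and 46.9, 46.0, 45.6 and 25.1 FPKM in WT. In both genes Old 1 and WT 4 were the lowest libraries and the other 10 lay close together. Rpl5, which with Rpl11 and 5S rRNA can bind Mdm2, stood at ratios of 0.73 and 0.68 to the mean of the 10, and Rps4x, the X-linked 40S gene, at 0.83 and 0.69. Rpl3, a protein of the peptidyl transferase region, moved little (1.09 and 0.95), with 169.6, 160.3, 156 and 153 FPKM in Old, 156, 159, 159 and 154 FPKM in New, and 159.6, 154, 149.8 and 149 FPKM in WT. Old 1 minus the mean of Old 2 to 4 and WT 4 minus the mean of WT 1 to 3, which have no library in common, correlated over the 79 members at Pearson's r = 0.97 and Spearman's rho = 0.96. Rpl22l1 was one of the few exceptions, at ratios of 1.20 in Old 1 and 0.68 in WT 4.

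**Figure D2:**
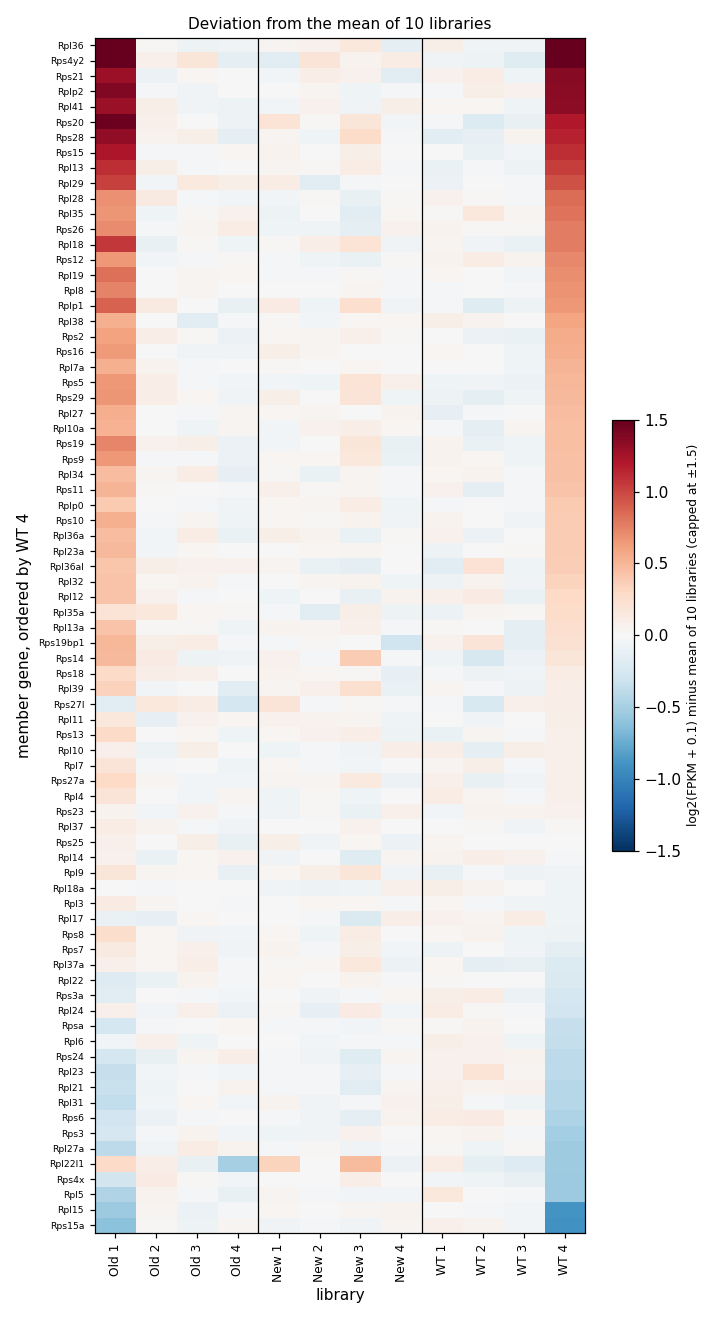
Deviation of log2(FPKM + 0.1) from its mean over the 10 libraries without Old 1 and WT 4, for 78 members (rows, ordered by WT 4) in 12 libraries (columns, Old, New, WT), with colours capped at ±1.5. The first and the last column carry nearly all of the strong colour, from red for Rpl36 at the top to blue for Rps15a at the bottom.

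**Figure D3:**
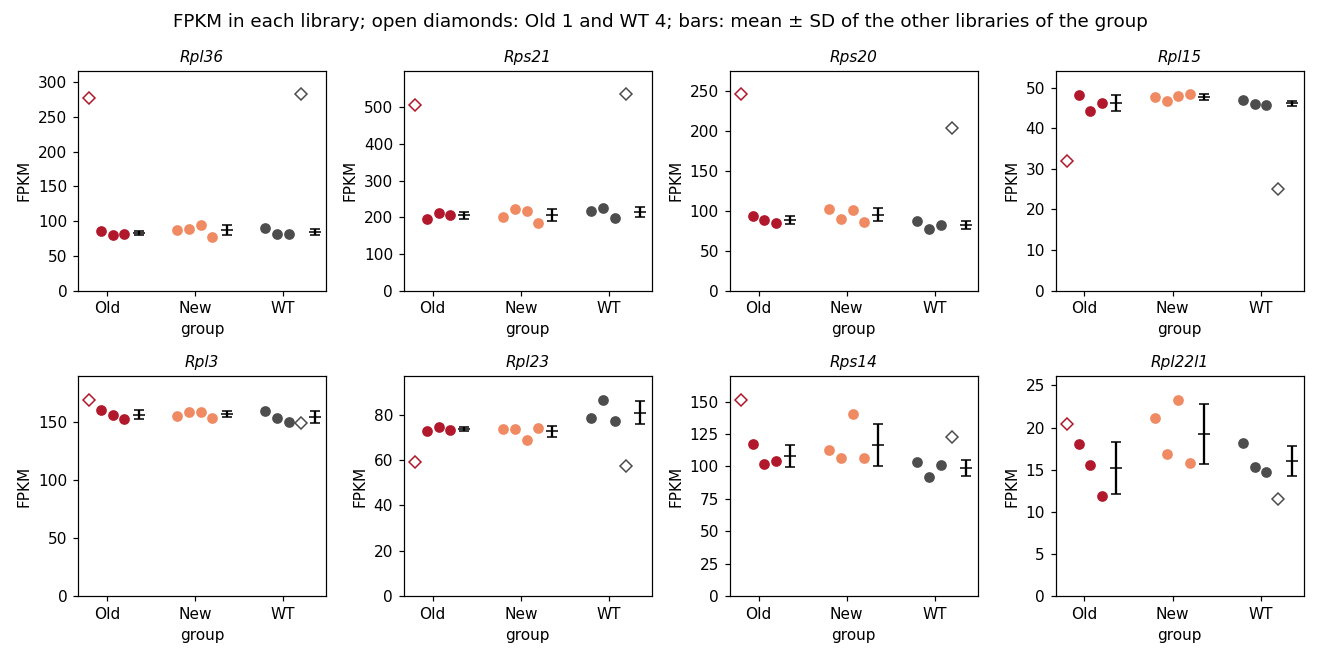
FPKM in each library for 8 members, with groups in the order Old, New, WT; open diamonds are Old 1 and WT 4, filled points the other libraries, and bars their mean ± SD. In Rpl36 the diamonds stand at 277 and 283 FPKM over points between 77.1 and 94.6 FPKM, in Rpl15 at 31.9 and 25.1 FPKM under points between 44.2 and 48.4 FPKM.

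The base composition of the members differed along with these deviations. The coding sequences of 4 members begin as follows, with G and C in capitals. The first pair were far higher in Old 1 and WT 4 and the second pair lower. The sequences are from GENCODE M21 on GRCm38. The first 60 coding bases are shown, 5′ to 3′ on the strand of the gene, and the coordinates are those of the whole gene.
Rpl36 (chr17:56613416-56614243, +): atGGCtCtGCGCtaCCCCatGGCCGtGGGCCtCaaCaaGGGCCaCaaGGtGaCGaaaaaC
Rps21 (chr2:180257377-180258445, +): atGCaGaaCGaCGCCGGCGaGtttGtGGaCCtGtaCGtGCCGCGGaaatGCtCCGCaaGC
Rpl5 (chr5:107900502-107909005, +): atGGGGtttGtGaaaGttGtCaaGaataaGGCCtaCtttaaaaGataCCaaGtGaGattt
Rps15a (chr7:118104372-118116188, -): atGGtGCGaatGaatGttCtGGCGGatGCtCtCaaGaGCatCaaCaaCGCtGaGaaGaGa

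Over the whole coding sequence G and C make up 61.3% of Rpl36, 53.6% of Rps21, 45.9% of Rpl5 and 45.6% of Rps15a. Rps21 is thus only of middle coding GC among the members. Rpl15, at a similar 53.3%, was low instead, at ratios of 0.68 in Old 1 and 0.54 in WT 4 to the mean of the 10 libraries. The 26 members of highest coding GC (54.5 to 61.3%) had a median ratio to the mean of the 10 libraries of 1.596 in Old 1 and 1.52 in WT 4, and 24 and 23 of them exceeded the range of the 10. The 26 of middle coding GC (50.3 to 54.4%) stood at 1.28 and 1.14. The 26 of lowest coding GC (39.6 to 50.3%) stood at 1.05 and 0.96, with 10 and 5 of them above the range and 10 and 12 below it. Across the 78 members with a coding sequence, Spearman's rho between coding GC and the deviation was 0.56 in Old 1 and 0.55 in WT 4. These are points from the same 2 libraries. Transcript GC gave 0.68 and 0.67 over the 79 members, and 0.77 and 0.77 over the 15907 tested genes with a value. Within each band of transcript GC the members were still above the other genes: at 50 to under 55% GC, 35 members had a median log2 deviation of 0.43 in Old 1, against 0.0099 for 4197 tested genes, and 0.37 in WT 4, against -0.10.

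Transcript length moved with the deviation too (rho -0.52 in Old 1 and -0.52 in WT 4), more than over all tested genes (-0.16 and -0.19). Exceptions to the pattern of coding GC were Rps20, with 48.6% coding GC and a ratio of 2.76 in Old 1, and Rpl15, with 53.3% and a ratio of 0.68. By transcript GC, Rps20 (41.3%) was still an exception, whereas Rpl15 (43.2%) was low at a low GC. Members with the tract at the start lay on both sides. The 12 members that carry it at the annotated start ranged in ratio from 0.65 for Rps15a to 2.62 for Rplp2 in Old 1, and from 0.53 to 2.57 in WT 4. Sums of several lists of cell-type markers also lay outside the range of the other 10 libraries in Old 1 and WT 4. Single genes often did so too. Of all tested genes, 27.5% were above and 43.5% below that range in Old 1, and 22.3% and 51.2% in WT 4. A sum can also hide single markers that go the other way. The summed level of 5 of 5 neuronal markers was 1069 FPKM in Old 1 and 929 FPKM in WT 4, against 1315 to 1433 FPKM in the other 10 libraries. Those of the 4 striatal markers found in the table were 137 and 148 FPKM, against 98.0 to 111 FPKM. Both libraries were also below the 10 for the 5 astrocyte markers (174 and 159 FPKM, against 196 to 223 FPKM) and for the 4 blood markers found in the table (11.4 and 11.8 FPKM, against 14.3 to 23.3 FPKM). Both were above them for the 5 hypothalamic markers (38.4 and 33.3 FPKM, against 12.9 to 26.0 FPKM). WT 4 alone was above the 10 for endothelium (38.9 FPKM, against 29.5 to 36.1 FPKM). It alone was below them for choroid plexus (159.7 FPKM, against 197 to 273 FPKM), thalamus (52.95 FPKM, against 64.9 to 72.4 FPKM) and oligodendrocytes (1336 FPKM, against 1424 to 1668 FPKM). Old 1 alone was slightly above them for cortex (78.7 FPKM, against 69.3 to 77.9 FPKM) and for the dissected regions, cerebellum and olfactory bulb (33.2 FPKM, against 21.1 to 30.8 FPKM). For microglia and for midbrain and hindbrain both lay within the range of the 10. By group, the neuronal sum ranged over 1069 to 1433 FPKM in Old, 1335 to 1385 FPKM in New and 929 to 1409 FPKM in WT. With the trend of transcript GC removed from each of the 12 libraries, the median log2 difference of the members was -0.00091 in Old minus WT, -0.080 in New minus WT and 0.068 in Old minus New. The part that length or cell composition had in the members' levels was not tested.

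**Figure D4:**
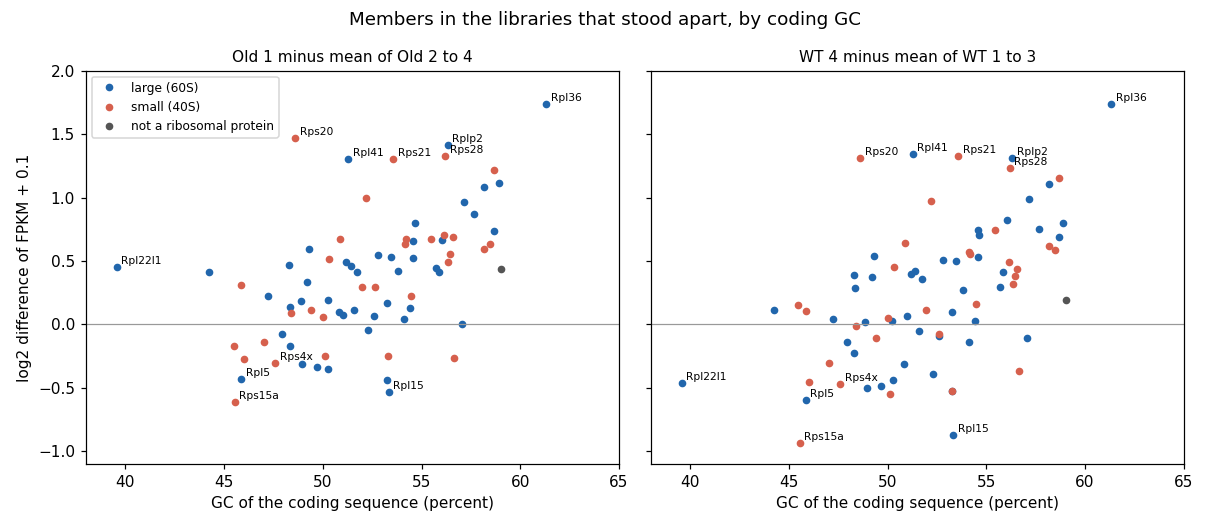
Each member's log2 difference between Old 1 and the mean of Old 2 to 4 (left) and between WT 4 and the mean of WT 1 to 3 (right), against the GC percentage of its coding sequence, coloured by subunit. Differences are higher at higher GC in both panels (Spearman's rho 0.56 and 0.55, 78 members), from Rps15a at the bottom to Rpl36 at the top right.

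No member passed the test between the groups. Differences were tested by limma on log2(FPKM + 0.1), with Benjamini-Hochberg adjustment over all 16203 tested genes. In Old against WT 0 of 79 members passed an adjusted p of 0.05 with 12 libraries, where 0.0247% of tested genes did, and 0 of 79 passed without Old 1 and WT 4, where 0.0494% did. In New against WT the count was 0 of 79 in both fits, beside 0.00617% and 0.0123% of tested genes. In Old against New it was 0 of 79 in both, beside 0.0123% and 0.037%. At an unadjusted p under 0.05 the 12-library fit held 0 members in each comparison, against 1.67% of tested genes in Old minus WT, 2.22% in New minus WT and 1.14% in Old minus New. With 10 libraries it held 4 of 79 members in Old minus WT (background 6.06%), 13 of 79 in New minus WT (10.8%) and 1 of 79 in Old minus New (4.82%).

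With 12 libraries the median log2 difference of the members was 0.041 in Old minus WT (0.031 over all tested genes), where each group holds one. It was -0.050 in New minus WT (0.057 over all tested genes) and 0.078 in Old minus New (-0.027), where New holds none. Positive differences numbered 52, 30 and 60 of 79. Without Old 1 and WT 4 the medians were -0.0016, 0.021 and -0.013, with 38, 46 and 32 members above 0, and the tested genes had medians of -0.0012, -0.0062 and 0.0053. The median thus changed sign in all 3 comparisons. Under median ratio scaling of the 12 libraries the median of New minus WT was -0.11, with 14 of 79 members above 0. Within the 10 libraries the 95% intervals were narrow, with a median half-width of 0.12 in Old minus WT and 0.11 in the other comparisons. The whole interval lay within a 1.5-fold difference for 79, 78 and 78 members. With all 12 libraries the median half-width was 0.28 in each comparison. The whole interval then lay within 1.5-fold for 67 members in Old minus WT, 59 in New minus WT and 58 in Old minus New.

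**Figure D5:**
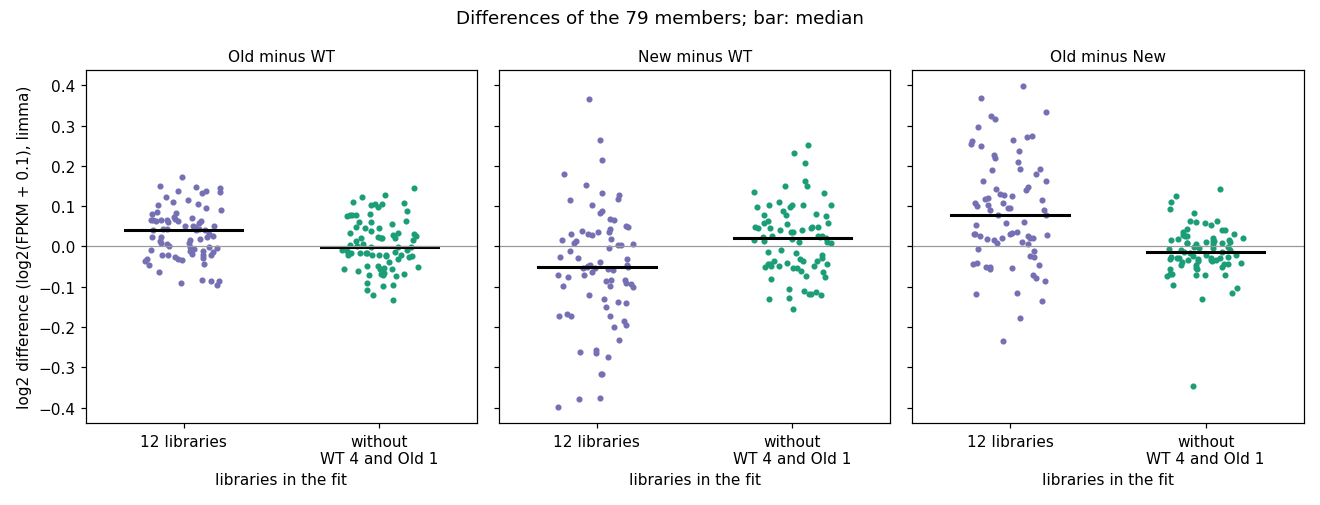
Log2 difference of each of the 79 members (points, jittered sideways) in Old minus WT, New minus WT and Old minus New, from the fit with 12 libraries (left in each panel) and from the fit without WT 4 and Old 1 (right), with the median as a bar. The points lie closer to 0 without the 2 libraries, and all 3 bars cross 0: they stand at 0.041, -0.050 and 0.078 with 12 libraries and at -0.0016, 0.021 and -0.013 without the 2.

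The summed level of the members was 12883, 8828, 8791 and 8598 FPKM in Old, 8854, 8745, 9009 and 8695 FPKM in New, and 8847, 8749, 8603 and 12159 FPKM in WT. Old 1 and WT 4 stood far above, and the other 10 libraries of the 3 groups overlapped within a narrow band. Group means were 9775 ± 2074 FPKM in Old, 8826 ± 139 FPKM in New and 9590 ± 1716 FPKM in WT (SD, n = 4 each). Without the 2 libraries they were 8739 ± 123 FPKM in Old (n = 3), 8826 ± 139 FPKM in New (n = 4) and 8733 ± 123 FPKM in WT (n = 3). The members made up 3.07% of the FPKM sum in Old 1 and 2.89% in WT 4, against 1.66 to 2.32% in the others. The lowest share was that of WT 2, whose FPKM sum over all rows was 527104. In the remaining libraries that sum was 385096 to 406958 FPKM and the share 2.16 to 2.32%. The small-subunit sum over the large-subunit sum was 0.777 in Old 1 and 0.754 in WT 4, against 0.705 to 0.747 in the other 10.

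Among large-subunit genes, Rpl23, which lies at the face between the subunits and is known to bind Mdm2, had the smallest p. It had 59.3, 73.1, 74.6 and 73.5 FPKM in Old, 73.6, 73.8, 68.9 and 74.3 FPKM in New, and 78.8, 86.8, 77.3 and 57.2 FPKM in WT. Without Old 1 and WT 4 the Old and New libraries were all below the 3 WT libraries. The log2 difference was then -0.15 in New minus WT (adjusted p = 0.346, limma with Benjamini-Hochberg adjustment; exact permutation p = 0.0286, two-sided, the smallest that 4 against 3 can give) and -0.13 in Old minus WT (adjusted p = 0.753, limma). With all 12 libraries it was -0.030 in New minus WT and -0.087 in Old minus WT. Neither comparison passed the threshold, and the 2 comparisons share their WT mice. Groups that do not overlap put the permutation p at or near its minimum. Members were named for such groups, so this p is no separate support for a difference in Rpl23.

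Rpl35 and Rps26, a 60S and a 40S protein, stood out in earlier results of these data. Rpl35 had 332, 201, 213 and 219 FPKM in Old, 199.9, 209, 187 and 214 FPKM in New, and 213, 235, 216 and 371 FPKM in WT. Rps26 had 227, 135, 142 and 149.7 FPKM in Old, 132, 132, 125 and 145 FPKM in New, and 143, 140.0, 139 and 236 FPKM in WT. In both genes WT 4 and Old 1 were the highest, and the remaining libraries overlapped between the groups. New minus WT was -0.32 for Rpl35 with 12 libraries and -0.13 without Old 1 and WT 4, and -0.27 and -0.080 for Rps26. The difference was thus smaller without the 2 libraries, but it stayed negative in all 23 alternatives for both genes. Rpl36 changed sign, at -0.40 with 12 libraries and 0.036 without the 2, and in Old minus New it was 0.37 and -0.068. Rpl37a had the smallest p in Old minus WT with 12 libraries, at 0.15 (adjusted p = 1, limma), and stood at 0.10 without the 2.

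Among small-subunit genes, Rps12, a protein of the beak of the 40S subunit, did not overlap between New and WT in either fit. It had 287, 177, 178 and 185 FPKM in Old, 180.4, 175, 169.8 and 185 FPKM in New, and 189.6, 198, 189 and 300.4 FPKM in WT. The New libraries were all below the 4 WT libraries, though New 4 and WT 3 came close. The log2 difference in New minus WT was -0.27 with 12 libraries (adjusted p = 0.965, limma) and -0.11 with 10 (adjusted p = 0.367, limma). Rps4x was the only member above WT in all 4 New libraries with 12 libraries, at 88.2, 116, 108 and 104 FPKM in Old, 107, 106, 115 and 107 FPKM in New, and 104, 102, 99.0 and 73.2 FPKM in WT. Its difference was 0.22 with 12 libraries and 0.098 with 10. With 12 libraries 1 of 79 members was thus wholly higher (background 1.94%) and 1 wholly lower (0.66%) in New than in WT.

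Rps6, the 40S protein that S6 kinases phosphorylate downstream of mTOR, had 81.4, 93.5, 97.8 and 99.8 FPKM in Old, 97.5, 95.3, 90.6 and 103 FPKM in New, and 107, 108, 102 and 72.1 FPKM in WT. WT 4 was the lowest library and the other WT libraries were among the highest. Old minus WT was -0.046 with 12 libraries and -0.12 with 10, and New minus WT 0.0080 and -0.13. Rps14 differed by 0.15 in New minus WT with 12 libraries and by 0.23 with 10, Rps20 by -0.12 and 0.21, Rps15 by -0.20 and 0.087, and Rps2 by -0.050 and 0.10. Adjusted p-values in the 10-library fit were 0.383 for Rps20 and 0.450 for Rps14 (limma). Rps18 differed by 0.12 and 0.11 in Old minus WT. Between the knockout strains, Rps16, a protein of the head of the 40S subunit, had an Old minus New log2 difference of -0.072 without Old 1 and WT 4 and of 0.096 with 12 libraries.

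Few members had groups that did not overlap, and their counts lay on both sides of the background share of all tested genes. Without Old 1 and WT 4, 4 of 79 members were wholly higher (background 4.89%) and 7 of 79 wholly lower (5.2%) in Old than in WT. In New against WT the counts were 7 of 79 (5%) and 5 of 79 (5.8%), and in Old against New 1 of 79 (3.36%) and 2 of 79 (2.62%). With 12 libraries no member was wholly apart in Old against WT, where 0.796% of tested genes were wholly higher and 0.302% wholly lower. In Old against New 1 member was wholly higher (0.728%) and none wholly lower (1.06%).

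That member was Rpl36al, the retrotransposed paralog of the X-linked Rpl36a. It had 79.2, 63.4, 62.4 and 62.2 FPKM in Old, 61.2, 55.5, 54.1 and 59.4 FPKM in New, and 52.9, 69.0, 57.0 and 76.8 FPKM in WT. All Old libraries were above all New libraries, whereas WT spanned both. Old minus New was 0.21 with 12 libraries (adjusted p = 0.985, limma) and 0.12 with 10. Rpl36a averaged 89.6 ± 4.91 FPKM over the 10 libraries (SD), and Rpl36al 59.7 ± 4.94 FPKM. The Rpl22 pair was closer in level: Rpl22 averaged 15.3 ± 0.454 FPKM and its paralog Rpl22l1, which Rpl22 is known to repress, 17.1 ± 3.29 FPKM. Rpl22l1 had 20.5, 18.0, 15.6 and 11.9 FPKM in Old, 21.1, 16.8, 23.3 and 15.8 FPKM in New, and 18.1, 15.3, 14.7 and 11.5 FPKM in WT. Its libraries overlapped in all 3 groups. New minus WT was 0.37 and Old minus New -0.23 with 12 libraries, and 0.25 and -0.35 with 10.

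The paralogs known from muscle and testis were close to absent, whereas Rpl7l1, Rps4y2 and Rps27l were higher. Rpl3l, the striated-muscle copy of Rpl3, averaged 0.163 FPKM beside 157 FPKM for Rpl3 over 12 libraries. Rpl10l and Rpl39l, both known from the testis, averaged 0.00407 and 0.0308 FPKM beside 74.7 FPKM for Rpl10 and 133 FPKM for Rpl39. Rpl7l1, a relative of Rpl7, averaged 1.04 FPKM beside 123 FPKM. Rps4y2 had 23.7, 7.86, 8.46 and 6.78 FPKM in Old, 6.63, 8.51, 7.71 and 8.06 FPKM in New, and 7.20, 7.07, 6.53 and 21.8 FPKM in WT. It thus followed the deviation of Old 1 and WT 4 whereas Rps4x went the other way. Rps27l, a p53 target in mouse and human cells, had 9.22, 11.6, 11.2 and 8.62 FPKM in Old, 11.9, 10.2, 10.5 and 10.2 FPKM in New, and 10.2, 8.82, 10.9 and 11.1 FPKM in WT, with full overlap.

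Subunit genes that the name rule does not take were listed beside the members. Fau, which encodes a 40S protein fused to a ubiquitin-like protein, had 244 FPKM in Old 1 and 272 FPKM in WT 4, against a mean of 127 ± 4.79 FPKM over the other 10 (SD). Rack1, listed as Gnb2l1, had 44.3 and 38.5 FPKM, against 47.1 ± 3.07 FPKM. Over the 18 listed translation factors and other TOP mRNAs the median log2 deviation was -0.031 in Old 1 and -0.17 in WT 4. Within this list Eef2, which translocates the ribosome, had ratios of 1.45 and 1.36, and Eef1a1, which delivers tRNA, 0.77 and 0.71.

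No list had a gene that passed the test. The 30 ribosome assembly and RNA polymerase I genes had median log2 deviations of -0.098 in Old 1 and -0.22 in WT 4. The 23 genes of mTOR, S6 kinase and p53 control had 0.11 and -0.049, and the 71 mitochondrial ribosomal protein genes 0.16 and -0.054. In Old against WT, New against WT and Old against New, with 12 and with 10 libraries, 0 of 18 TOP mRNAs, 0 of 30 assembly genes, 0 of 23 control genes and 0 of 71 mitochondrial genes passed the adjusted threshold. Their median log2 differences without Old 1 and WT 4 were -0.012, -0.025, -0.029 and -0.0020 in Old minus WT, in that order of lists, and -0.035, -0.036, 0.028 and 0.0014 in New minus WT. All tested genes had medians of -0.0012 and -0.0062.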

How the data were processed

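Libraries were made from polyadenylated brain RNA with an Illumina TruSeq mRNA kit and were sequenced as paired ends, per the labels' protocols. The kit does not mark strand. Reads were processed with TopHat2 2.0.9, Bowtie2 2.1.0, Cufflinks and Cuffdiff 2.1.1 on mm10, per the submitters' processing notes. The authors deposited FPKM values for 12 libraries. The annotation, the treatment of multiply mapped reads and the normalization were not given in the sources used here. Depth is therefore unknown.

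Differences were tested with limma 3.58.1 (R 4.3.3; trended empirical Bayes) on log2(FPKM + 0.1), a scale that understates changes of low genes. The fit held 16203 genes with a mean of at least 0.5 FPKM and all 3 groups, and Benjamini-Hochberg adjustment ran over all of them. All 79 members passed this filter. Single members were also compared by exact permutation. Everything was repeated without Old 1 and WT 4. The alternatives were other pseudocounts and filters, median ratio scaling, quantile normalization, removal of a GC trend, library weights, fits of only the groups compared and leaving out each library. Copies were found with BLAST+ 2.17.0 against GENCODE M21. Gene coordinates and GC are from GENCODE M21 and promoter windows from RefSeq, both on GRCm38. Of the table's rows, 640 matched no reference name.

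The members and lists were chosen with earlier results of these data known. Members were named for passing the test, for groups that do not overlap, for the highest or lowest levels, differences, deviations of Old 1 or WT 4 or spread, for lying next to the 5 FPKM minimum, for a paralog, or for earlier results (Rpl35, Rps26). Some items are not reported here by name, and counts over the members include them.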

Additional observations from a re-analysis of the deposited data

Results flagged for a closer look

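The values below lay far from the other 3 libraries of their group of 4, by a gap whose share of the group's whole range exceeded Dixon's 95% critical value. Chance alone flags about 1 group in 20. Of the 237 groups formed by the 79 members, 75 held such a library: 35 times it was WT 4 and 32 times Old 1. Among 31 named genes and the summed level, 40 of 96 groups did. Such gaps were not counted over all tested genes, so these counts are no result about the members. Of all tested genes, 27.5% were above and 43.5% below the range of the other 10 libraries in Old 1, and 22.3% and 51.2% in WT 4.

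The summed level of the members was 12883 FPKM in Old 1 and 12159 FPKM in WT 4. Both libraries were high for Rpl36 (277 FPKM in Old 1, 283 FPKM in WT 4), Rps21 (506 and 535), Rplp2 (261 and 255), Rpl41 (385 and 399), Rpl35 (332 and 371), Rps26 (227 and 236), Rps12 (287 and 300.4) and Rps20 (245 and 203). The same held for Rps15 (512 FPKM in Old 1 and 473 FPKM in WT 4), Rps16 (169 and 159), Rps28 (428 and 379.9) and Rps4y2 (23.7 and 21.8).

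Only Old 1 was far from its group for Rpl36al, at 79.2 FPKM, and for Rpl23, low at 59.3 FPKM. WT 4 alone was far above for Rpl38 (749 FPKM), Rps29 (445 FPKM), Rplp1 (418 FPKM) and Rps2 (164 FPKM). It was far below for Rpl22 (13.1 FPKM), Rps15a (6.69 FPKM), Rpl15 (25.1 FPKM) and Rps4x (73.2 FPKM).

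In New, 4 values stood out: New 3 was high for Rps4x (115 FPKM) and low for Rpl23 (68.9 FPKM), New 2 was low for Rpl38 (485 FPKM), and New 4 was low for Rps19bp1 (6.06 FPKM).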

How the results depend on the processing

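The count of members called was 0 in all 3 comparisons under all 23 alternatives, with a lowest adjusted p of 0.333 (limma). The median log2 difference lay between -0.052 and 0.10 in Old minus WT, between -0.11 and 0.029 in New minus WT and between -0.019 and 0.11 in Old minus New. Its sign changed in 4 of 23 alternatives in each comparison, 12 of 69 in all. Leaving out WT 4 alone put it at 0.10 in Old minus WT and 0.021 in New minus WT. Leaving out Old 1 alone put it at -0.052 in Old minus WT and -0.013 in Old minus New. A minimum of 1 or 20 FPKM gave 82 or 73 members. Summed FPKM in New was 8648 under median ratio scaling, and 7283 in New and 7821 in WT without the 5 highest members.

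Single members changed direction mainly with WT 4 or Old 1. In New minus WT, without both libraries, under library weights, and without both plus median ratio scaling (added after seeing the data), the differences were 0.036, 0.011 and 0.044 for Rpl36, 0.21, 0.20 and 0.21 for Rps20, 0.087, 0.071 and 0.095 for Rps15, 0.10, 0.089 and 0.11 for Rps2, and -0.13, -0.12 and -0.12 for Rps6. Rps6 was also at -0.049 under median ratio scaling, -0.0016 under quantile normalization and -0.052 with the GC trend removed. In Old minus New the same 3 settings gave -0.068, -0.040 and -0.074 for Rpl36 and -0.072, -0.071 and -0.078 for Rps16.

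Leaving out 1 library at a time gave ranges that crossed 0 in New minus WT for Rpl36 (-0.56 to 0.036), Rpl23 (-0.15 to 0.046), Rps20 (-0.26 to 0.21), Rps15 (-0.31 to 0.087), Rps6 (-0.13 to 0.065) and Rps2 (-0.11 to 0.10). They crossed 0 in Old minus WT for Rps6 (-0.18 to 0.017) and Rps12 (-0.25 to 0.076), and in Old minus New for Rpl36 (-0.068 to 0.53) and Rps16 (-0.072 to 0.16). The cause was not tested. Of 483 repeated differences of named members, 37 changed sign. No paired analysis was possible because the WT numbers come from the titles whereas Old and New mice were numbered in accession order, so equal numbers do not link mice.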
